A study of Mus musculus with 8 samples.

Results

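The end joining repair genes described here are Xrcc5, Xrcc6, Prkdc, Lig4, Xrcc4, Nhej1, Dclre1c, Trp53bp1, Rif1 and Paxip1, 10 genes chosen by symbol out of 22609 in the deposited table. All 10 were found, and all 10 passed the filter on low values. Their messenger RNA was measured by RNA sequencing of naive CD8 T cells, which have not met antigen and can become cytotoxic T cells, isolated from the spleens of C57BL/6 mice. The mice were 3 months old and were Brca1 wild type (WT, 4 libraries, numbered 45, 54, 57 and 65 in their titles) or Brca1 heterozygous (Het, 4 libraries, numbered 31, 53, 56 and 139). The labels do not say how the Brca1 allele was made, which exons it affects or whether the libraries stand for separate mice, and every p-value here therefore rests on the spread between libraries. No treatment of the mice or cells is named.

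Nonhomologous end joining rejoins the ends of a DNA double strand break without an intact copy as template. The Ku heterodimer, of Xrcc5 (Ku80) and Xrcc6 (Ku70), clamps onto each end and recruits the kinase DNA-PKcs (Prkdc). DNA-PKcs activates the nuclease Artemis (Dclre1c), and a complex of DNA ligase IV (Lig4), its scaffold Xrcc4 and the Xrcc4-like factor Nhej1 seals the break. The chromatin protein 53BP1 (Trp53bp1) and its partners Rif1 and PTIP (Paxip1) protect ends from resection and so oppose Brca1, which promotes repair by homologous recombination. T cell precursors depend on end joining to assemble their antigen receptor genes, whereas mature naive T cells rest outside the cell cycle, where no sister copy is present.

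None of the 10 genes passed the test between Het and WT libraries, and the values of the genotypes overlapped in all 10. The test was limma on log2(value + 1), fitted over all 12048 genes with a mean of at least 10 and adjusted by Benjamini-Hochberg at a threshold of 0.05. It called 0 of the 10 genes, against a background of 0.515% of all genes tested (62 genes, all of them lower in Het). At an unadjusted p under 0.05 it also held 0 of the 10, against 8.19% of all tested genes. In 0 of the 10 genes was every Het library below every WT library, against 2.86% of all tested genes, and in 0 of the 10 was every Het library above, against 2.13%. Of the 10 genes 7 had a lower mean log2 value in Het, where 48.0% of all tested genes did, and 3 a higher one, with a median log2 difference of -0.07, where the median over all tested genes was 0.01. The log2 differences lay between -0.23 (Nhej1) and 0.21 (Xrcc4), with limma adjusted p from 0.690 to 0.923. The 95% intervals reached no lower than -0.74 (Nhej1) and no higher than 0.50 (Xrcc4), so each left out a difference of 2-fold, which is 1 on the log2 scale, in either direction.

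**Figure D1:**
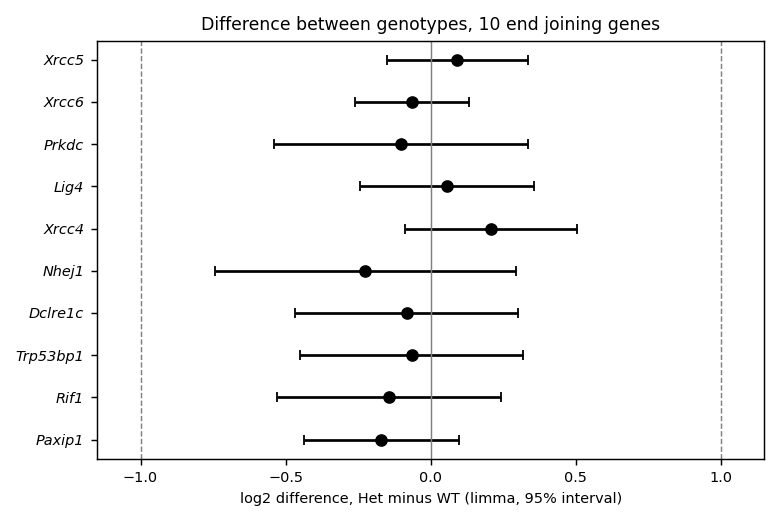
Log2 difference between Het and WT (horizontal axis) for each of the 10 end joining genes (vertical axis), with 95% intervals from limma, n = 4 libraries per genotype. Every interval spans 0 and lies inside the dashed lines at -1 and 1, which mark a 2-fold difference.

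The deposited values are normalized read counts that have nearly the same distribution in all libraries, so they carry no information on total RNA. Genes above 0 numbered 15358 to 15569 in WT, against 13863 to 14656 in Het libraries, so the genotypes did not overlap in the number of genes detected. Each whole number of reads was taken to have its own value, so that the count of distinct values up to 100 estimates the reads that a value of 100 stands for. It was 106 to 128 in WT libraries and 74 to 121 in Het libraries, which overlapped. By that estimate Nhej1, the member with the lowest values, rested on 69.3 to 166 reads, and Rif1, the member with the highest, on 2535 to 6317. For values above 100 the estimate was extended in proportion, which was not checked and which the normalization need not keep. The 7 T cell markers found, such as Cd3e and Cd8a, had a summed value of 166044.3 to 185566.2 in WT, against 178466.3 to 202926.8 in Het libraries. The 8 B cell markers summed to 2731.8 to 7430.1 in WT and 3510.7 to 17528.9 in Het, highest in Het 31. Sums of the 7 NK cell markers were 11552.9 to 14647.5 in WT and 12448.7 to 20571.2 in Het. Those of the 8 myeloid markers were 1317.1 to 2438 in WT and 1106.5 to 3836.2 in Het, and both were also highest in Het 31. Nkg7 had the highest value of the 7 NK cell markers in every library and so weighed most in their sum. Log2 differences of these 7 ran from -0.07 (Prf1, the only lower one in Het) to 1.79 (Klra8, at 0.2 to 50.8), and none was called. The 12 connective tissue and nerve markers summed to 4997.3 to 9391.9 in WT and 340.2 to 1230.1 in Het, without overlap (exact 2-sided permutation p = 0.0286). Of these 12, Dcn, S100b, Map1b, Prune2, Apod and Snap25 were called lower in Het, where 0.515% of all tested genes were, and the others were not called. These markers were chosen with earlier results of these data known. They include Map1b, with the lowest log2 difference of all tested genes (-6.63), and Prune2, with the lowest limma adjusted p (0.00093). Their permutation p and calls are therefore a description and not independent support. The 10 proliferation markers summed to 7351.7 to 8206.6 in WT and 7290.1 to 8214.8 in Het. Mcm2, Mcm5 and Pcna had the highest values of these 10 in every library and so weighed most in the sum. By gene the log2 differences ran from -0.43 (Mki67) to 1.38 (Ccnb1), and none of the 10 was called. The part of these other cells in the values of the repair genes was not tested, beyond a fit with the B cell markers as a covariate, which called 0 of the 10 genes. In such bulk samples, fewer cells of a type and less RNA per cell cannot be told apart.

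The Ku subunits varied little between libraries. Xrcc5, the Ku80 subunit, had normalized read counts of 975.2, 1029.7, 1029.4 and 1143.2 in WT 45, 54, 57 and 65, against 1164.3, 1104.2, 948.1 and 1251 in Het 31, 53, 56 and 139. Het 139 was the highest and Het 56 the lowest of all, so the Het libraries enclosed the WT libraries. The WT mean was 1044 ± 70.7 and the Het mean 1117 ± 128 (SD, n = 4 each), which is 0.09 apart in log2 terms (SE 0.11, limma adjusted p = 0.816). Xrcc6, the Ku70 subunit, had values of 1455.8, 1628.2, 1485 and 1365.8 in the WT libraries in the same order and of 1416.1, 1343.7, 1447.4 and 1460 in the Het libraries. All 4 Het values lay within or just below the WT range, and the means were 1484 ± 109 and 1417 ± 52.1 (log2 difference -0.06, SE 0.09, limma adjusted p = 0.840). Xrcc6 had the smallest spread of the 10 genes, with a coefficient of variation of 5.98% over the 8 libraries, and Xrcc5 one of 9.54%. Lig4, which is not a Ku subunit, varied less than Xrcc5, at 8.58%. Per length of transcript, the ratio of Xrcc5 to Xrcc6 was 0.914 ± 0.115 in WT, against 1.02 ± 0.117 in Het (SD, n = 4 each), and the genotypes overlapped (0.816 to 1.08 in WT, 0.845 to 1.11 in Het).

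The Ku genes are shown with the 250 bases before their annotated starts, because their products act as a pair and their levels were near each other, whereas these sequences differ in composition. The sequences are RefSeq's, build GRCm38.p6, printed 5′ to 3′ on the gene's strand, and the build of the deposited table is mm9. The motifs searched on both strands were the GC box with the letters GGGCGG, the CCAAT box, the TATA box with the letters TATAAA, a pair of E2F forms spelled TTTCCCGC and TTTGGCGC, the cyclic AMP element TGACGTCA and the NRF1 core GCATGCGC. Capitals mark every match. RefSeq windows were matched for 8 of the 10 genes, the other two being Prkdc and Rif1.
Xrcc5, plus strand, chr1:72307171-72307420: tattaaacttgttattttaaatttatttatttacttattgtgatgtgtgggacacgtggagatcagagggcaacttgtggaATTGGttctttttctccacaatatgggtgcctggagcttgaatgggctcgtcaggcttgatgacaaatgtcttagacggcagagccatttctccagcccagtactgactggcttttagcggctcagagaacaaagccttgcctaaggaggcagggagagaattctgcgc
Xrcc6, plus strand, chr15:82016119-82016368: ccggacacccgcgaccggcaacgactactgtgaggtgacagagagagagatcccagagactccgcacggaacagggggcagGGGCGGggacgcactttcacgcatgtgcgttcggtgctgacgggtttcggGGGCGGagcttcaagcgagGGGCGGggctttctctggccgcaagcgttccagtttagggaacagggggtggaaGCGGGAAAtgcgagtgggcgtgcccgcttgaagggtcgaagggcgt
The Xrcc5 window had a GC content of 44.8% with 5 CG dinucleotides, and its capitals mark 1 CCAAT box on the minus strand. The Xrcc6 window had 65.2% GC with 25 CG dinucleotides, 3 GC boxes and 1 E2F motif on the minus strand. Over the 32851 RefSeq windows of the same length the median GC content was 52.4% and the median number of CG dinucleotides 6. A GC box stood in 32.7% of those windows, CCAAT in 33.9% and TTTCCCGC in 0.895%. A match describes letters in a window and not binding of a factor.

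Prkdc, the large kinase that Ku recruits, had one of the widest ranges. Its values were 3158.5, 2233.7, 2614.6 and 3829.2 in WT 45, 54, 57 and 65, against 2170.6, 3656.2, 2988.8 and 2242.8 in Het 31, 53, 56 and 139. Each genotype had high and low libraries: WT 65 and Het 53 were highest, and Het 31, WT 54 and Het 139 lowest. The WT mean was 2959 ± 693 and the Het mean 2765 ± 700.1 (SD, n = 4 each), which is -0.10 apart in log2 terms (SE 0.20, limma adjusted p = 0.890). The coefficient of variation was 22.8% over the 8 libraries, the largest of the 10 genes. Dclre1c, the Artemis nuclease that opens hairpin ends, had 647.1, 682, 673.7 and 772.8 in the WT libraries and 465.2, 733, 850.7 and 629.6 in the Het libraries. The WT values lay close together, and Het 31 and Het 56 were the lowest and the highest of all 8. The means were 694 ± 54.7 and 669.6 ± 163 (log2 difference -0.08, SE 0.17, limma adjusted p = 0.901).

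Of the ligation complex, Xrcc4 was the only member with a higher Het mean by more than 0.1 on the log2 scale, and Nhej1 the member with the largest difference in the other direction. Lig4, the ligase, had 370.1, 364.1, 325 and 359.1 in the WT libraries, against 345.5, 409.2, 400.1 and 325.1 in the Het libraries. Its genotypes shared nearly the same lower limit, with means of 355 ± 20.2 and 369.98 ± 41.1 (SD, n = 4 each; the log2 difference was 0.06, SE 0.14, limma adjusted p = 0.914). Xrcc4, the scaffold that stabilizes the ligase, had 653.4, 561.2, 583.8 and 476 in the WT libraries, against 654.8, 579.3, 635.1 and 751.7 in the Het libraries. WT 65 was the lowest and Het 139 the highest, while the other libraries of the genotypes were interleaved. The means were 569 ± 73.1 and 655 ± 71.8, which is 0.21 apart in log2 terms (SE 0.13, 95% interval -0.09 to 0.50, limma adjusted p = 0.690, exact 2-sided permutation p = 0.171).

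Nhej1, a structural relative of Xrcc4 that bridges the ends, had 136.8, 133.1, 115 and 103.2 in the WT libraries, against 136.7, 87.3, 118.3 and 81.5 in the Het libraries. Het 53 and Het 139 lay below every WT library, and Het 31 matched the highest of them. The WT mean was 122 ± 15.8 and the Het mean 106 ± 26.1 (SD, n = 4 each), which is -0.23 apart in log2 terms (SE 0.23, 95% interval -0.74 to 0.29, limma adjusted p = 0.790). Nhej1 rested on the fewest reads of the 10 genes, and counting alone gives it an estimated coefficient of variation of 7.75 to 12.0%, against 19.1% measured over the 8 libraries. Per length of transcript, the ratio of Nhej1 to Xrcc4 was 0.306, 0.347, 0.288 and 0.317 in WT 45, 54, 57 and 65, against 0.305, 0.220, 0.272 and 0.159 in Het 31, 53, 56 and 139, so 3 of the 4 Het libraries lay below all WT libraries and Het 31 did not. The ratio of Lig4 to Xrcc4 per length was 0.193 ± 0.0281 in WT against 0.176 ± 0.0366 in Het.

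**Figure D2:**
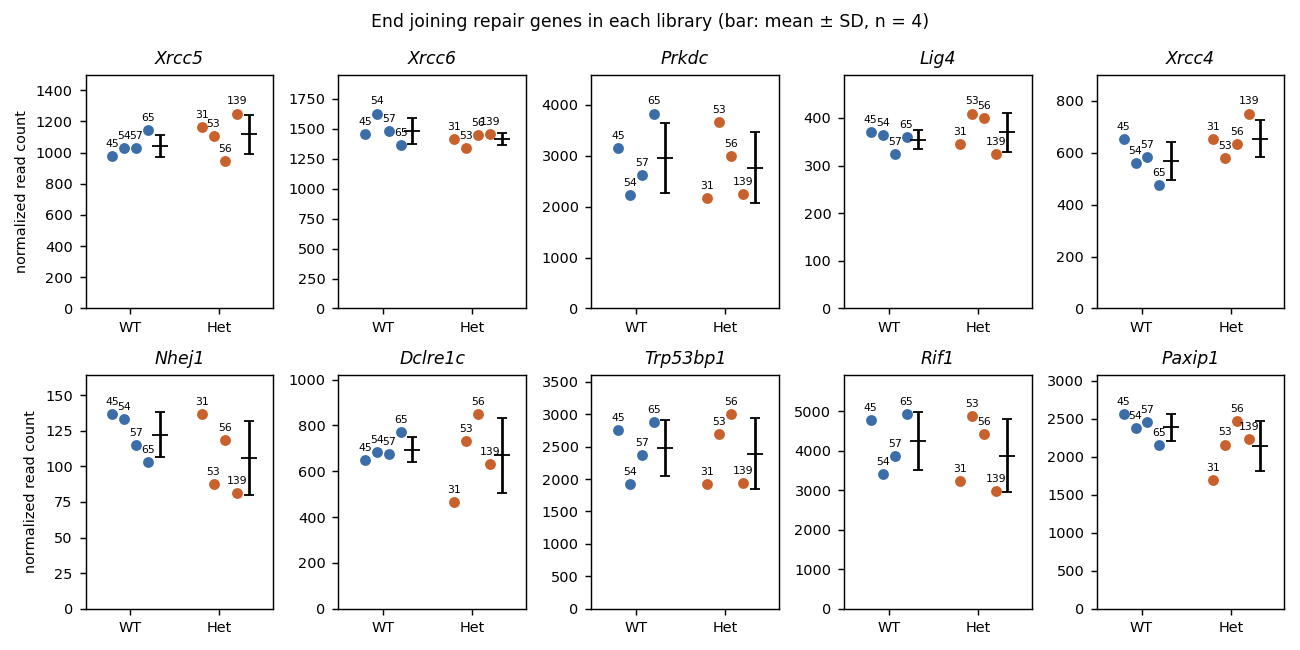
Normalized read count (vertical axes, starting at 0) of each end joining gene in the 4 WT (blue) and 4 Het (orange) libraries, labelled by library number, with mean ± SD beside each group. The genotypes overlap in every panel, and Prkdc, Trp53bp1 and Rif1 split each genotype into high and low libraries in the same way.

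The 53BP1 axis, which shields ends from resection, had lower Het means in its 3 genes without a call. Trp53bp1 had 2762.7, 1922, 2369.9 and 2879.6 in WT 45, 54, 57 and 65, against 1926.8, 2700.4, 3005.5 and 1934.8 in Het 31, 53, 56 and 139. WT 54, Het 31 and Het 139 were nearly level at the bottom, and Het 56 was highest. The WT mean was 2484 ± 433 and the Het mean 2392 ± 547 (SD, n = 4 each), which is -0.07 apart in log2 terms (SE 0.17, limma adjusted p = 0.923). Rif1, the effector that binds phosphorylated 53BP1, had 4783.4, 3407, 3856.8 and 4935.5 in the WT libraries, against 3233.8, 4877.6, 4425.3 and 2982.3 in the Het libraries. The highest Het library, 53, lay between the highest 2 WT libraries, and the means were 4246 ± 735 and 3879.8 ± 916 (log2 difference -0.14, SE 0.17, limma adjusted p = 0.819). Paxip1, the PTIP protein that also belongs to a histone methyltransferase complex, had 2565.9, 2377.6, 2459.1 and 2154.1 in the WT libraries, against 1689.5, 2162, 2476.2 and 2231.8 in the Het libraries. Het 31 was below all the others, and the remaining 3 Het libraries lay within the WT range. The means were 2389 ± 175 and 2139.9 ± 329 (log2 difference -0.17, SE 0.12, 95% interval -0.44 to 0.10, limma adjusted p = 0.716). Without Het 56 its log2 difference was -0.24 (limma adjusted p = 0.339), which was the lowest adjusted p of any of the 10 genes over the 19 alternatives.

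The 250 bases before the annotated starts of Trp53bp1 and Paxip1 are shown because their products act together at breaks while their values followed different libraries. Capitals mark the motifs listed for the Ku genes.
Trp53bp1, minus strand, chr2:121271408-121271657: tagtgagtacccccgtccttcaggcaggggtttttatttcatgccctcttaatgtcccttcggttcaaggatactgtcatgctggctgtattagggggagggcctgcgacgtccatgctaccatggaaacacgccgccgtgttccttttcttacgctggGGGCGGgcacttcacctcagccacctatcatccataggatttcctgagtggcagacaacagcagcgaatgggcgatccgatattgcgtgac
Paxip1, minus strand, chr5:27791551-27791800: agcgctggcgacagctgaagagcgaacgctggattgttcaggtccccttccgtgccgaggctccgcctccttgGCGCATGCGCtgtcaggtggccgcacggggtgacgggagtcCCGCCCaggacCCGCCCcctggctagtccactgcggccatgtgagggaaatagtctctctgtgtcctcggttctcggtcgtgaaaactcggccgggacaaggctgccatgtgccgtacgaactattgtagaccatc
The Trp53bp1 window held 1 GC box, 54.4% GC and 13 CG dinucleotides. The Paxip1 window held 2 GC boxes and had 63.6% GC with 22 CG dinucleotides. It also held 2 overlapping matches of the NRF1 core, 1 on each strand, and that core stood in 2.26% of all windows. Of the other matched genes, Lig4 had the same core, likewise on each strand, in the window of 1 of its 2 annotated starts.

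Prkdc, Trp53bp1 and Rif1 varied together from library to library, across the genotypes. In all 3 the same 4 libraries were highest (WT 45, WT 65, Het 53 and Het 56), WT 57 was in the middle, and WT 54, Het 31 and Het 139 were lowest. Over the 8 libraries the log2 values of Prkdc and Rif1 had a Pearson r of 0.96 (Spearman 0.93), those of Trp53bp1 and Rif1 of 0.94 (Spearman 0.74) and those of Prkdc and Trp53bp1 of 0.90 (Spearman 0.81), given as a description because the points share libraries and the pairs were picked after their values had been seen. The Ku genes did not follow: Xrcc6 and Prkdc had a Pearson r of -0.67, and Xrcc5 and Rif1 of -0.49. Prkdc, Trp53bp1 and Rif1 have the longest transcripts of the 10 genes, with 12647, 9621 and 8509 bases in the GENCODE M21 annotation, against 1053 (Nhej1) to 5850 (Paxip1) bases for the other 7.

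The libraries differed in the same way over long transcripts in general. A long transcript index was computed for each library as the median log2 deviation of 1324 genes with transcripts of at least 6000 bases minus that of 2695 genes with transcripts under 2000 bases, without any gene of the lists used here. It was 0.26, -0.14, 0.04 and 0.25 in WT 45, 54, 57 and 65, against -0.39, 0.20, 0.14 and -0.40 in Het 31, 53, 56 and 139 (mean ± SD 0.10 ± 0.19 in WT and -0.11 ± 0.33 in Het, n = 4 each, exact 2-sided permutation p = 0.286). Rif1 had a Pearson r of 0.97 with the index, Trp53bp1 of 0.92 and Prkdc of 0.90, and without Het 31 and Het 139, the libraries farthest from the median index, these were 0.98, 0.905 and 0.91. Such a relation is shared by many genes: among the long transcripts the median r was 0.66, which the index favours by its construction, and among 6427 genes of 2000 to 6000 bases it was 0.04. Of the 7 shorter members Dclre1c had an r of 0.71 with the index, Lig4 of 0.60 and Paxip1 of 0.55, and without Het 31 and Het 139 these were 0.24, 0.32 and -0.21. Xrcc5 had an r of -0.60, Xrcc4 of -0.58, Xrcc6 of -0.34 and Nhej1, the shortest, of 0.04, and without the same libraries 0.18, 7.8e-05, -0.87 and -0.38. Without Het 31 and Het 139 the relations of Dclre1c, Lig4, Paxip1, Xrcc5 and Xrcc4 with the index were thus weaker or changed sign. Those of Prkdc, Trp53bp1 and Rif1 stayed nearly the same, and that of Xrcc6 became stronger. Leaving out these libraries also narrows the range of the index, so a weaker r does not show that a relation rested on them.

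**Figure D3:**
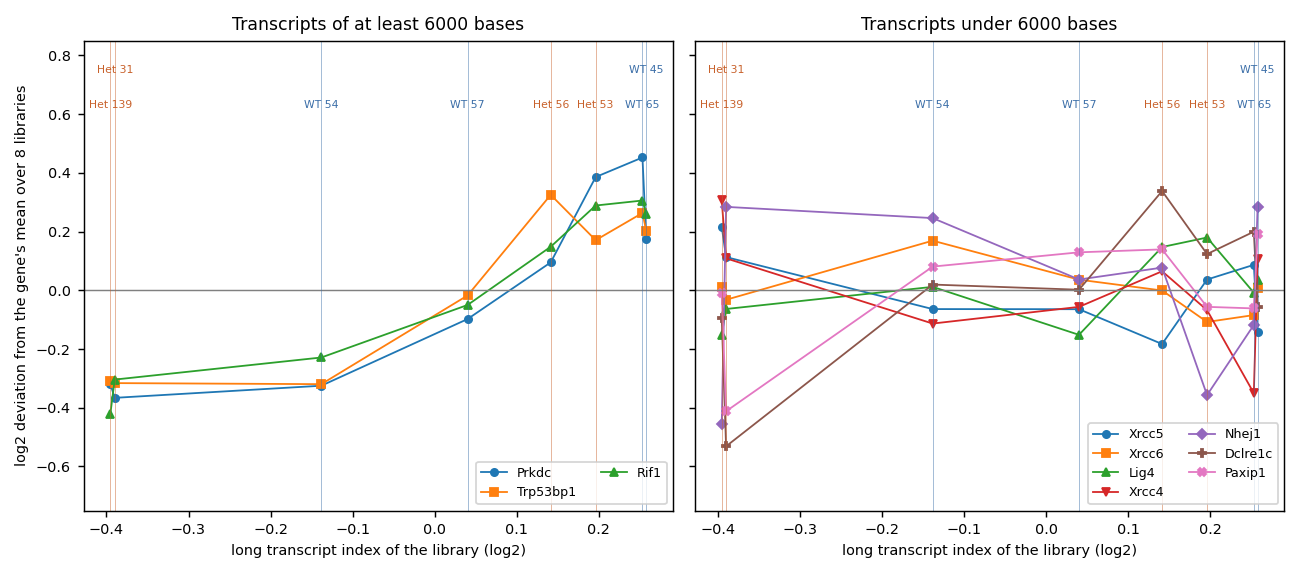
Log2 deviation of each end joining gene from its own mean (vertical axis) against the long transcript index of the library (horizontal axis, log2), with Prkdc, Trp53bp1 and Rif1 on the left and the 7 genes with shorter transcripts on the right. Vertical lines mark WT (blue) and Het (orange) libraries, and the 3 long transcripts lie below 0 in Het 139, Het 31, WT 54 and WT 57 and above 0 in Het 56, Het 53, WT 65 and WT 45, while the others take different orders.

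With the index as a covariate, chosen after the data had been seen, limma again called 0 of the 10 genes, and the lowest adjusted p was 0.664 (Trp53bp1). The sign of 4 differences turned: the log2 difference between Het and WT was 0.17 for Trp53bp1, 0.16 for Prkdc, 0.10 for Rif1 and 0.08 for Dclre1c. With that covariate 7 of the 10 genes were higher in Het and their median log2 difference was 0.09. The direction of these 4 genes between the genotypes therefore depended on whether the index was in the fit.

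Levels can be compared between the genes only per length, and on that scale the complex members fell into an order with broad overlap. Over the 8 libraries the normalized read count per kilobase of transcript was 477 ± 93.2 for Rif1, 440.0 ± 26.3 for Xrcc6, 423 ± 40.3 for Xrcc5, 397 ± 52.9 for Xrcc4 and 387 ± 47.5 for Paxip1 (SD, n = 8 libraries). Dclre1c followed at 276 ± 46.0, Trp53bp1 at 253 ± 47.7 and Prkdc at 226 ± 51.7. Nhej1 at 108 ± 20.6 and Lig4 at 72.1 ± 6.18 were lowest. Each gene overlapped its next neighbour in this order over the libraries except Prkdc and Nhej1, whose ranges of 172 to 303 and 77.4 to 129.9 did not meet. Among all tested genes with a length the 10 lay between the 25.8th (Lig4) and the 60.8th percentile (Rif1), so the ligase had the lowest level of the set. Nhej1 was at the 30.4th percentile, and the remaining members lay from the 42.5th (Prkdc) upward.

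**Figure D4:**
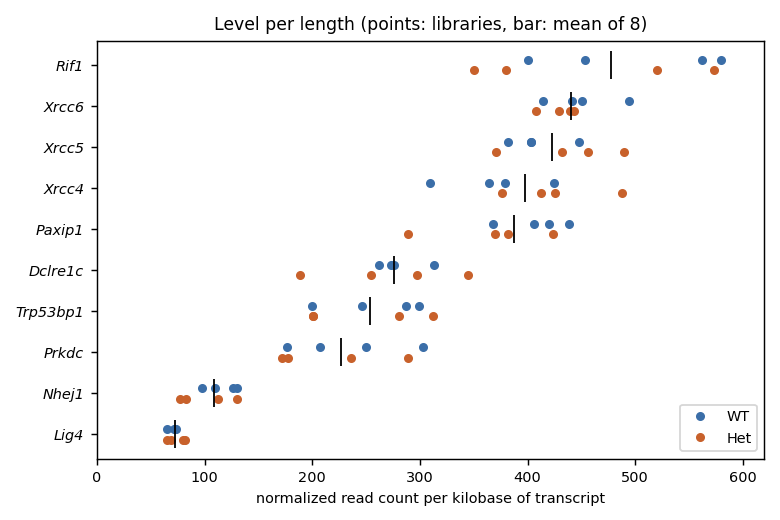
Normalized read count per kilobase of transcript (horizontal axis) of the 10 end joining genes in WT (blue) and Het (orange) libraries, with the mean of the 8 libraries as a black bar. Rif1, the Ku genes, Xrcc4 and Paxip1 overlap at the top, and Nhej1 and Lig4 lie apart at the bottom.

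The mean standardized profile of the 10 genes, to which each gene contributed equally and with which Trp53bp1, Rif1 and Dclre1c had the highest Pearson r (0.86, 0.83 and 0.82) and Xrcc5 the lowest (-0.73), was compared with every other tested gene with a mean of at least 100. The closest were Tmc4 (Pearson r 0.98 over 8 libraries), Bod1l (0.98), Tanc2 (0.98), Cyfip2 (0.98) and Rsf1 (0.98). Of these 5, Bod1l, Tanc2, Cyfip2 and Rsf1 have transcripts of 6659 to 11855 bases, and Tmc4 one of 2310. Bod1l, for example, was highest in WT 45 and Het 56, at 6159.2 and 6141.9, and lowest in Het 31 and Het 139, at 2808.5 and 3527.3. Het 31 and Het 139 were the lowest in Rif1 as well, whereas Rif1 was highest in WT 65 (4935.5) and Het 53 (4877.6).

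Other genes of end joining were read from lists of end processing enzymes, 53BP1 partners, the Paxip1 complex, alternative end joining, resection and antigen receptor recombination. By limma 0 of the 61 tested genes in these lists was called in either direction, where 0.515% of all tested genes were, and 2 of the 61 (Dntt and Dna2) had an unadjusted p under 0.05, where 8.19% of all tested genes did. End processing and accessory genes were higher in Het in 5 and lower in 7 of 12 (median log2 difference -0.03). Dntt, the polymerase that adds nucleotides at the ends joined during receptor assembly, came nearest to the threshold, at 503 ± 101 in WT against 846 ± 30.7 in Het (SD, n = 4 each, with a log2 difference 0.77, limma adjusted p = 0.0636), and was the only gene of the lists whose genotypes did not overlap, where every Het library was above every WT library in 2.13% of all tested genes and below in 2.86%. Setmar, a histone methyltransferase, was at 108 ± 34.9 in WT against 147 ± 10.7 in Het (log2 difference 0.49, limma adjusted p = 0.649). Aplf, a histone chaperone that binds Ku, was at 293 ± 21.3 in WT against 228 ± 75.3 in Het (-0.41 apart in log2 terms, limma adjusted p = 0.653), and its 2 lowest libraries were Het 139 at 167.6 and Het 31 at 173.8.

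The 53BP1 list, mainly of the kinase, ubiquitin ligases and methyltransferases that bring 53BP1 to chromatin and the shieldin and CST proteins that act after it, was higher in 9 and lower in 12 of 21 genes (median log2 difference -0.04). It also holds other partners, among them Nudt16l1, Ppp1ca, Ppp1cb and Ppp1cc, so these counts do not stand for genes that all promote the action of 53BP1. Dynll1, a dynein light chain that makes 53BP1 dimers, was at 2138 ± 306 in WT against 1772 ± 223 in Het (SD, n = 4 each, with a log2 difference -0.27, limma adjusted p = 0.621). Ten1, of the CST complex, was at 469.7 ± 79.4 in WT against 588 ± 115 in Het (log2 difference 0.32, limma adjusted p = 0.653). Kmt5a, which places the histone mark that 53BP1 reads once it is extended, was at 2588 ± 313 in WT against 2159.9 ± 492 in Het (log2 difference -0.28, limma adjusted p = 0.655). The kinase Atm, with a transcript of 9787 bases, split the libraries as Rif1 did: it was at 7981.2 and 7992.9 in WT 65 and Het 53 and at 4708.6, 4700.7 and 4597.6 in WT 54, Het 31 and Het 139. Mdc1, with 7335 bases in the same list, did not: WT 65 at 5328.3 was below WT 54 at 6234.6 and level with Het 139 at 5332.

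In the Paxip1 methyltransferase complex 4 genes were higher and 5 lower in Het of 9 tested (median log2 difference -0.06). Kmt2d, its methyltransferase with a transcript of 19823 bases, had 50265.2, 26800.6, 37085.8 and 43069.2 in WT 45, 54, 57 and 65, against 14702.4, 37863.2, 41051.8 and 18405.6 in Het 31, 53, 56 and 139 (log2 difference -0.59, limma adjusted p = 0.653). Its low libraries were again Het 31, Het 139 and WT 54, and with the long transcript index as a covariate its log2 difference was -0.12. Kmt2c, its relative with 14967 bases, had a log2 difference of -0.41 (limma adjusted p = 0.740), and of 0.05 with the covariate. Wdr5, a core subunit, was at 2297 ± 75.9 in WT against 2441 ± 90.8 in Het (log2 difference of 0.09, limma adjusted p = 0.758).

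Alternative end joining, which uses short matching stretches after resection, was higher in 5 and lower in 3 of 8 genes (median log2 difference 0.03). Xrcc1, the scaffold of ligase III, was at 1871 ± 132 in WT against 1665 ± 144 in Het (SD, n = 4 each, with a log2 difference -0.17, limma adjusted p = 0.660). Fen1, a flap nuclease, was at 672 ± 25.1 in WT against 749 ± 80.8 in Het (0.15 apart in log2 terms, limma adjusted p = 0.724), and Parp2, a poly(ADP-ribose) polymerase, at 1647 ± 180 and 1794 ± 278 (0.12, limma adjusted p = 0.797). Of 9 resection and Brca1 genes 3 were higher and 6 lower (median -0.02). Dna2, a resection nuclease, was at 32.95 ± 17.3 in WT against 60.8 ± 10.6 in Het (0.97 apart in log2 terms, limma adjusted p = 0.513), and Bard1, the partner of Brca1, at 84.7 ± 13.6 and 109.5 ± 30.4 (0.34, limma adjusted p = 0.740).

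Brca1 itself, opposed by the 53BP1 axis, was compared with Trp53bp1 within each library. The ratio of Brca1 to Trp53bp1 per length of transcript was 0.110, 0.113, 0.104 and 0.105 in WT 45, 54, 57 and 65, against 0.133, 0.0771, 0.0617 and 0.128 in Het 31, 53, 56 and 139. The WT libraries lay within a narrow band, and the Het libraries lay on both sides of it, 2 above and 2 below. The high ratios belonged to the Het libraries with a low long transcript index, Het 31 and Het 139, and the low ones to Het 53 and Het 56. Trp53bp1, the denominator, itself had a Pearson r of 0.92 with the index over the 8 libraries. The WT ratios stayed within their band at index values of -0.14 to 0.26. Brca1 had a log2 difference of -0.25 (SE 0.20, limma adjusted p = 0.742), and its level gave no check of the labels.

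Of the recombination genes that create the breaks in developing lymphocytes, Rag2 was listed at 0 in all 8 libraries and Rag1 at 0 to 1.9 in WT and 0 to 16.6 in Het, the highest in Het 31. Both were below the filter. Hmgb1 and Hmgb2, chromatin proteins that assist the recombinase, had log2 differences of -0.12 and -0.08 (limma adjusted p = 0.860 and 0.932), and reads of Hmgb1 may be shared with its processed pseudogenes.

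**Figure D5:**
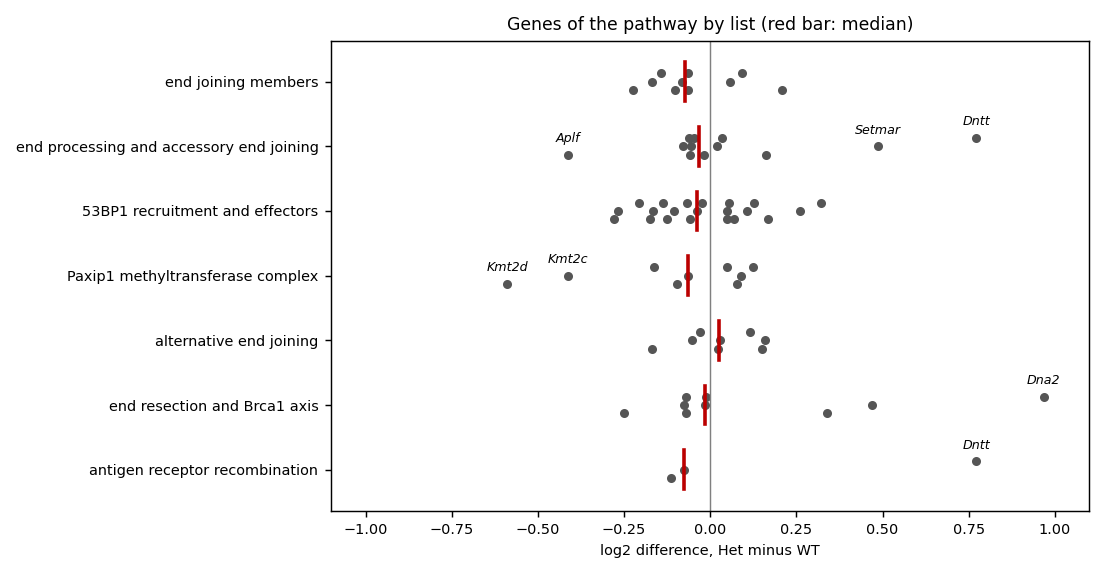
Log2 difference between Het and WT (horizontal axis) of each tested gene of the end joining pathway by list (vertical axis), with the median of each list in red. The medians lie between -0.08 and 0.03, and labels mark Dntt, Dna2 and Setmar on the higher side and Kmt2d, Kmt2c and Aplf on the lower side.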

How the data were processed

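The table the authors deposited gives 22609 genes in 8 libraries as normalized read counts, a linear signal rounded to 1 decimal. CASAVA, TopHat2, HTSeq, DESeq and mm9 are named per the submitters' processing notes, and the libraries were stranded and made from messenger RNA per the labels' protocols. How the counts were normalized, and whether counting used strand, is not given in the sources used here. In the deposited signal, the sorted values of the libraries agreed to within 2% of their mean at each of the 9513 ranks above a mean of 100 (100%), so the values were quantile normalized, depth is not recoverable from totals (27488636.8 to 27489670) and no count model was used.

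limma 3.58.1 in R 4.3.3 was fitted with a trend on log2(value + 1) for 12048 genes with a mean of at least 10, without covariates, 2-sided. Fold changes on this scale understate low genes. Exact permutation tests used all 70 assignments of 4 against 4 libraries, with a smallest p of 0.0286. Transcript lengths are those of the longest principal transcript in GENCODE M21 (GRCm38) and were found for 87.8% of tested genes. In that annotation exons of Xrcc6, Xrcc4 and Trp53bp1 overlap those of Desi1, Tmem167 and Tubgcp4 on the opposite strand, whose reads may be mixed in. The fit was tested on simulated data. The genes named beside the 10 members were Brca1, from each list up to 3 genes, taken by the smallest unadjusted p, and the 5 genes outside the lists most like the members' mean profile. Atm, Mdc1, Rag1 and Rag2 are named outside this rule and were picked with their values in view. The members and lists were chosen with earlier results of these data known. Paxx and Shld3 of the lists were not analysed here. Alternatives were the pseudocount (0.5 or 5), the filter (none or a mean of at least 50), scaling by upper quartile or median ratio, no trend, a robust fit, array weights, B cell markers or the long transcript index as a covariate, and leaving out each library.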

Additional observations from a re-analysis of the deposited data

How the results depend on the processing

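Under the 19 alternatives none of the 10 end joining genes passed the limma threshold (190 values, lowest adjusted p = 0.339), and the sign of the difference turned in 12 of them. With the B cell markers as a covariate the log2 difference was 0.0009 for Dclre1c and 0.018 for Trp53bp1. With the long transcript index as a covariate, chosen after seeing the data, it was 0.16 for Prkdc, 0.077 for Dclre1c, 0.17 for Trp53bp1 and 0.096 for Rif1, and the median over the 10 genes was 0.087. Leaving out 1 library, it ranged from -0.25 to 0.032 for Prkdc (above 0 without WT 65 or Het 31), from -0.21 to 0.081 for Dclre1c (above 0 without Het 31) and from -0.18 to 0.0295 for Trp53bp1 (above 0 without WT 65, Het 31 or Het 139), and the median from -0.17 (without Het 56) to 0.016 (without Het 31). The cause of these turns was not tested. Over all genes the number called was 123 with no filter (9 of them higher in Het), 14 with a mean of at least 50, 40 with the B cell markers, 12 with the long transcript index and 11 to 91 without 1 library, with 16, 11 and 16 without WT 54, 57 or 65 and 27, 21 and 30 without Het 31, 53 or 139. No paired analysis was possible because the labels name no pairs of libraries. Depth limits Nhej1 most, at an estimated 69.3 reads in its lowest library. No library stood far from the other 3 of its genotype in any of the 20 groups of values screened, by Dixon's criterion.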
